A study of Homo sapiens with 16 samples.

Results

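Iron handling was examined in the H3K27ac peak lists of K562, a human erythroleukemia cell line, at 9 genes for iron uptake, transport, storage, release from heme and export. The genes were listed by their role in iron handling, with earlier results of these data known, and are among the 19974 genes that code for proteins on the autosomes and X. A window was drawn around each gene, from 10 kb before to 10 kb after the gene body in GRCh38, and every peak in it with a −log10 q of at least 2 was used (an FDR of 1%). The 9 windows held 1436 of the 1065840 peaks in the 14 lists. When peaks of different lists that overlapped were merged, the windows held 176 of 170159 regions.

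The 14 lists came from untreated, fixed K562 cells, and each list is 1 ChIP library. In 6 libraries 0.25 µg of the H3K27ac antibody was added to 312, 625, 1250, 2500, 5000 or 20000 ng of chromatin, measured as its DNA content and called DNAchrom. Titer is the antibody amount per DNAchrom, with titer 1 at 0.25 µg for 10000 ng (10 µg), so these fixed-antibody libraries had titers of 32, 16, 8, 4, 2 and 0.5. The other 6 libraries had the same amounts of DNAchrom with the antibody normalized to titer 1, and 2 more libraries, 10-T1a and 10-T1b, had 10 µg at titer 1. The study lists 10-T1a together with the fixed-antibody libraries and 10-T1b together with the normalized ones, so the pair may also carry the difference between the series. Libraries are named by DNAchrom in µg and titer, as in 0.31-T32. Each condition has 1 library apart from the 10 µg pair, and the labels do not say that libraries came from separate cultures. The study lists 1 of the 2 inputs with each series but does not say which input served which library. A difference between the series therefore cannot be told apart from one between inputs or preparations. The lists held 64083 to 82143 peaks and covered 32.8 to 63.4 Mb in the fixed-antibody series, 54.4 to 75.3 Mb in the normalized series and 65.3 to 72.2 Mb in the 10 µg pair. The erythroid genes GATA1, TAL1, KLF1 and NFE2 had a peak within 1 kb of a start in 14 of 14 lists, and CD3E, PAX5, MYOD1, ALB and NEUROD1, markers of other cell types, had one in 0 lists.

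H3K27ac, the acetylation of lysine 27 on histone H3, marks active promoters and enhancers. Erythroid cells take up transferrin-bound iron through the transferrin receptor, reduce it and release it from endosomes, and pass much of it to mitochondria for heme synthesis. Iron that is not used is stored in ferritin or leaves the cell through ferroportin, and heme oxygenase returns iron from heme.

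The 250 bases before the start are given for the 5 members with an entry in the RefSeq promoter table (GRCh38.p14). They are shown because at 4 of these members the start base was in no peak of any list. Positions are chr3:196082091-196082340 on the minus strand for TFRC, chr2:119223584-119223833 on the plus strand for STEAP3, chr12:51026385-51026634 on the minus strand for SLC11A2, chr19:48965059-48965308 on the plus strand for FTL and chr2:189580787-189581036 on the minus strand for SLC40A1. Each sequence runs 5′ to 3′ towards the start, and capitals mark letters that match a searched motif on either strand. TFR2, SLC25A37, FTH1 and HMOX1 are the other members.
TFRC: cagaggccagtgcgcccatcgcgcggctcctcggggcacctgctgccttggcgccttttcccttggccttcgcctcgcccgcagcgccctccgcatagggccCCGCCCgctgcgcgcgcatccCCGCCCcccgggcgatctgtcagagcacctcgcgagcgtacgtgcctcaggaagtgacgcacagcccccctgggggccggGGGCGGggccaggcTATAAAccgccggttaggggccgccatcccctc
STEAP3: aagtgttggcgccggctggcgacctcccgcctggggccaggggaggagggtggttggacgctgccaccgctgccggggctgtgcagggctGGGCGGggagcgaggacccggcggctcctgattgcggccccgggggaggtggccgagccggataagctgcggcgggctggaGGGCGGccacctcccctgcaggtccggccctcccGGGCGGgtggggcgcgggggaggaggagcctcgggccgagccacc
SLC11A2: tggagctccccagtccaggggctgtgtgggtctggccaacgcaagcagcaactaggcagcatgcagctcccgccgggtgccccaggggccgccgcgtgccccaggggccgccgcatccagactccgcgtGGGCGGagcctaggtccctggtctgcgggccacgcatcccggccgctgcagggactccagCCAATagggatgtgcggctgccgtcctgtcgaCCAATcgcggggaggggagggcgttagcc
FTL: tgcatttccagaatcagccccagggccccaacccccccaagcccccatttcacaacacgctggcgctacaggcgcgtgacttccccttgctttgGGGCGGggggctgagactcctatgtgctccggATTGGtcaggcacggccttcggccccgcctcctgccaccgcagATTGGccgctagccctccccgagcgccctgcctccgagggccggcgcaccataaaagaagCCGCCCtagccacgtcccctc
SLC40A1: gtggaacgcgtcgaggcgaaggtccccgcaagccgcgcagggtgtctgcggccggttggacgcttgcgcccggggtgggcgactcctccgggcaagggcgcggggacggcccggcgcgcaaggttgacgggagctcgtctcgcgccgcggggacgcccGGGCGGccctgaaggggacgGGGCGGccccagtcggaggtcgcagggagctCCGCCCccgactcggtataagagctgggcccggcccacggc

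Of these 250 bases, no list had a peak over 160 in TFRC, 140 in STEAP3, 147 in SLC11A2 and 196 in FTL, whereas in SLC40A1 0 bases were without a peak. Their G and C content was 67.6% in FTL, 72.0% in SLC11A2, 74.4% in TFRC, 77.2% in SLC40A1 and 78.4% in STEAP3. The GC box GGGCGG matched in all 5, with 3 matches each in TFRC, STEAP3 and SLC40A1, 2 in FTL and 1 in SLC11A2, and it matched in 42.5% of 34943 RefSeq promoters over the same length. The CCAAT box CCAAT matched 2 times in SLC11A2 and 2 times in FTL (11194 of the 34943 promoters), and the TATA box TATAAA matched 1 time, in TFRC, where its first base is 33 bases before the start (10.8% of promoters). The GATA sequences AGATAA and TGATAA, the E-box CACGTG, the antioxidant response element core TGACNNNGC and the cAMP response element TGACGTCA, which occur in 9.19%, 6.67%, 6.32%, 10.9% and 1.63% of promoters, had no match in these letters, and no match overlapped another.

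The genes differed widely in how much of their window was covered by peaks, and in every window the fixed-antibody series covered less than the normalized series on average. Over the 14 lists the median share of the window covered was 54.5% at FTL and 43.0% at FTH1, the light and heavy chains of ferritin. It was 30.0% at TFR2, 23.9% at SLC25A37, 20.4% at TFRC, 20.2% at HMOX1, 18.5% at SLC40A1, 12.1% at STEAP3 and 10.3% at SLC11A2. The ranges of neighbours in this order overlapped. The mean coverage of the members had a median of 21.1%, against 7.98% over the 12424 gene windows with a mean coverage of at least 1%, which are the windows tested below. A window's share depends on how much flank and gene body it holds, since that of FTL is 21.571 kb long and that of SLC11A2 96.624 kb. Some windows also reach other genes, such as ACTL6B in that of TFR2 and HIGD1C in that of SLC11A2.

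**Figure D1:**
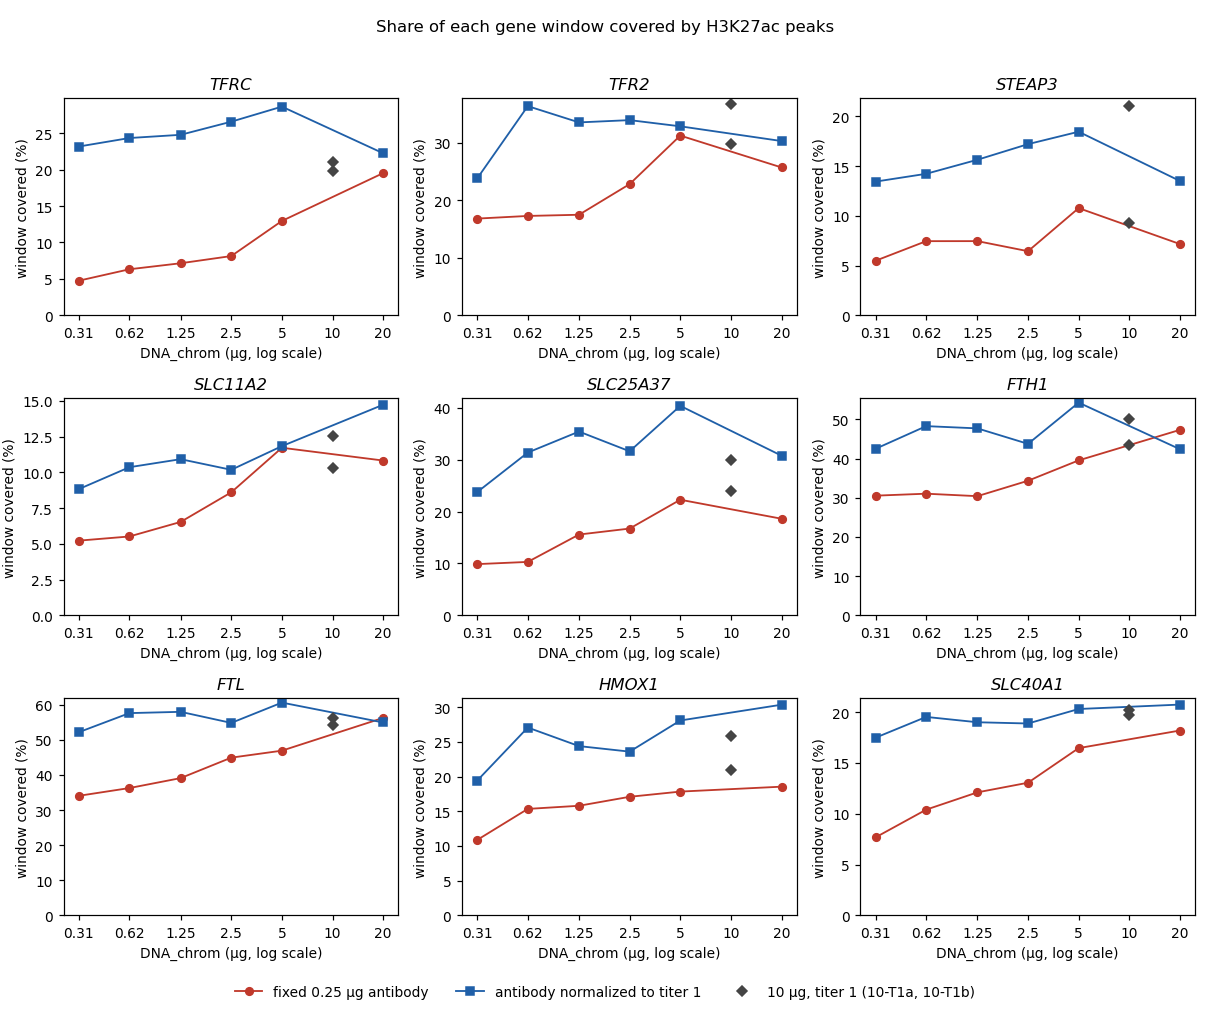
Share of each gene window covered by peaks (%, from 0) against DNAchrom (µg, log scale), 1 point per library, with lines joining the 6 fixed-antibody and the 6 normalized libraries and diamonds for 10-T1a and 10-T1b. The normalized line lies above the fixed-antibody line at all 6 amounts in 7 of the 9 panels, and at 20 µg the lines cross at FTH1 and FTL.

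TFRC encodes the transferrin receptor, the main entry of iron into erythroid cells, and its window had the steepest change relative to its own level. At titers of 32, 16, 8, 4, 2 and 0.5 the fixed-antibody libraries covered 4.75%, 6.32%, 7.15%, 8.14%, 12.95% and 19.5%. From the least to the most DNAchrom, the normalized libraries covered 23.2%, 24.3%, 24.8%, 26.6%, 28.6% and 22.2%, and 10-T1a and 10-T1b covered 19.8% and 21.1%. All normalized values were above all fixed-antibody values, and the highest of the 14 was 6.03 times the lowest. Coverage fell by 4.77 percentage points per doubling of titer at constant DNAchrom (SE 0.652, limma over 14 libraries, adjusted p = 0.000274). On a log2 scale of covered bases the slope was −0.51 ± 0.047 (SE), and only 2.08% of all windows had a lower one.

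The region next to the TFRC start spans chr3:196073158-196082055, begins 35 bp downstream of the start and runs 8.93 kb into the gene. The number of its bases under peaks was lowest in 0.31-T32, at 1663, and highest in 2.5-T1, at 8442, with a median of 6674. The strongest peak there had a fold enrichment over input, the authors' value, of 9.19 to 18.3 with a median of 11.6 in the fixed-antibody series and of 11.7 to 21.9 with a median of 18.8 in the normalized series, and the ranges overlapped. Relative to the median of each list, its slope over titer was −0.049 ± 0.052 on the log2 scale (SE, limma, adjusted p = 0.543). The strongest peak within 1 kb of the start was 775 bp long in 0.31-T32 and 6715 bp in 20-T1. Further into the gene, chr3:196061499-196062366, 19724 bp from the start, was the only region of the 9 windows present in every normalized list and absent from every fixed-antibody list, a pattern that 0.206% of all regions had, and it also had a peak in 1 of the 10 µg lists. Its fold enrichment was 3.31 to 7.45, at the 6.67 to the 73.0 percentile of its lists.

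TFR2 encodes a relative of the transferrin receptor that takes part in iron sensing in liver and erythroid cells. Its window was covered to between 16.8% and 31.3% in the fixed-antibody series, with a median of 20.2%, and to between 23.8% and 36.4% in the normalized series, with a median of 33.2%. The series overlapped, since 5-T2 at 31.3% was above 0.31-T1 at 23.8% and 20-T1 at 30.3%. Its slope over titer was −3.19 ± 0.829 percentage points (SE, limma, adjusted p = 0.00519). The region over the start, chr7:100638276-100643837, covered the start base in 14 of 14 lists. The strongest peak there had a fold enrichment of 7.80 to 10.4 in the fixed-antibody series, with its summit between −511 and 679 bp of the start. In the normalized series it was 8.15 in 5-T1 and 7.25 in the 1250 ng library but 16.6 to 23.2 in the other 4. The summit lay at −426 bp in 5-T1 and −494 bp in the 1250 ng library, but at 467 to 715 bp in the other 4. These values were thus read on different sides of the start. The region with the highest mean rank in this window was not at TFR2 but at MOSPD3, whose start is 29390 bp away.

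STEAP3, the ferrireductase of erythroid endosomes, and SLC11A2, the divalent metal transporter DMT1 that moves the reduced iron into the cytosol, had the lowest coverage of the members. The STEAP3 window was covered to 5.49% to 10.8% in the fixed-antibody series and to 13.4% to 18.5% in the normalized series, without overlap. The 10 µg pair, which share DNAchrom and titer, differed by more than that, with 9.25% in 10-T1a and 21.1% in 10-T1b. STEAP3 was the only member at which this difference, 11.8 percentage points, exceeded the mean matched difference between the series, 7.95 points. Its slope over titer was −2.04 ± 0.684 points (SE, limma, adjusted p = 0.0194), and without 0.31-T32 it was −2.06 and no longer passed.

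SLC11A2 coverage in the fixed-antibody series ran from 5.22% in 0.31-T32 to 11.7% in 5-T2 and was 10.8% in 20-T0.5. The normalized libraries covered 8.82% to 14.7%, so the series overlapped, and at 5 µg they differed by 0.114 points. The slope over titer was −0.891 ± 0.272 points (SE, limma, adjusted p = 0.0121). Of its 4 RefSeq starts, the one with a peak within 1 kb in 14 of 14 lists was an internal start at position 51026384 of chromosome 12. The outermost start, at 51028886, had such a peak in 3 lists, and the starts at 51028242 and 51009215 in 6 and 2. Distances for SLC11A2 are from the internal start. Downstream of it, chr12:51018510-51026360 ranked between the 90.2 and the 98.4 percentile of its list in every library.

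SLC25A37 encodes mitoferrin 1, which carries iron into erythroid mitochondria, and its window held the most regions, 34, of which 6 had a peak in 14 of 14 lists. Coverage with fixed antibody was 9.88%, 10.3%, 15.6%, 16.7%, 22.3% and 18.6% from the highest titer to the lowest. In the normalized series it was 23.8%, 31.4%, 35.4%, 31.6%, 40.4% and 30.8% from the least DNAchrom to the most. The series did not overlap, and the mean matched difference, 16.7 ± 3.55 percentage points (SD, n = 6 amounts), was the largest of the 9 members. Its slope over titer was −4.45 ± 1.07 points (SE, limma, adjusted p = 0.00345).

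A long block upstream of SLC25A37, chr8:23503083-23522785, spans 19703 bp, from −25.9 to −6.17 kb, and so runs past the edge of the window. It held 7 to 13 separate peaks per list, and its strongest peak ranked between the 90.9 and the 99.3 percentile. The regions on both sides of the start, from −1.90 to −0.26 kb and from −0.05 to 8.15 kb, ranked between the 87.6 and the 98.5 and between the 73.9 and the 97.2 percentile. The 3 other regions with a peak in every list, 2 of them inside the gene 17.7 kb or more from the start, were weaker, with a fold enrichment of 3.26 to 8.37. The plot of peaks by distance from the start shows these blocks list by list.

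**Figure D2:**
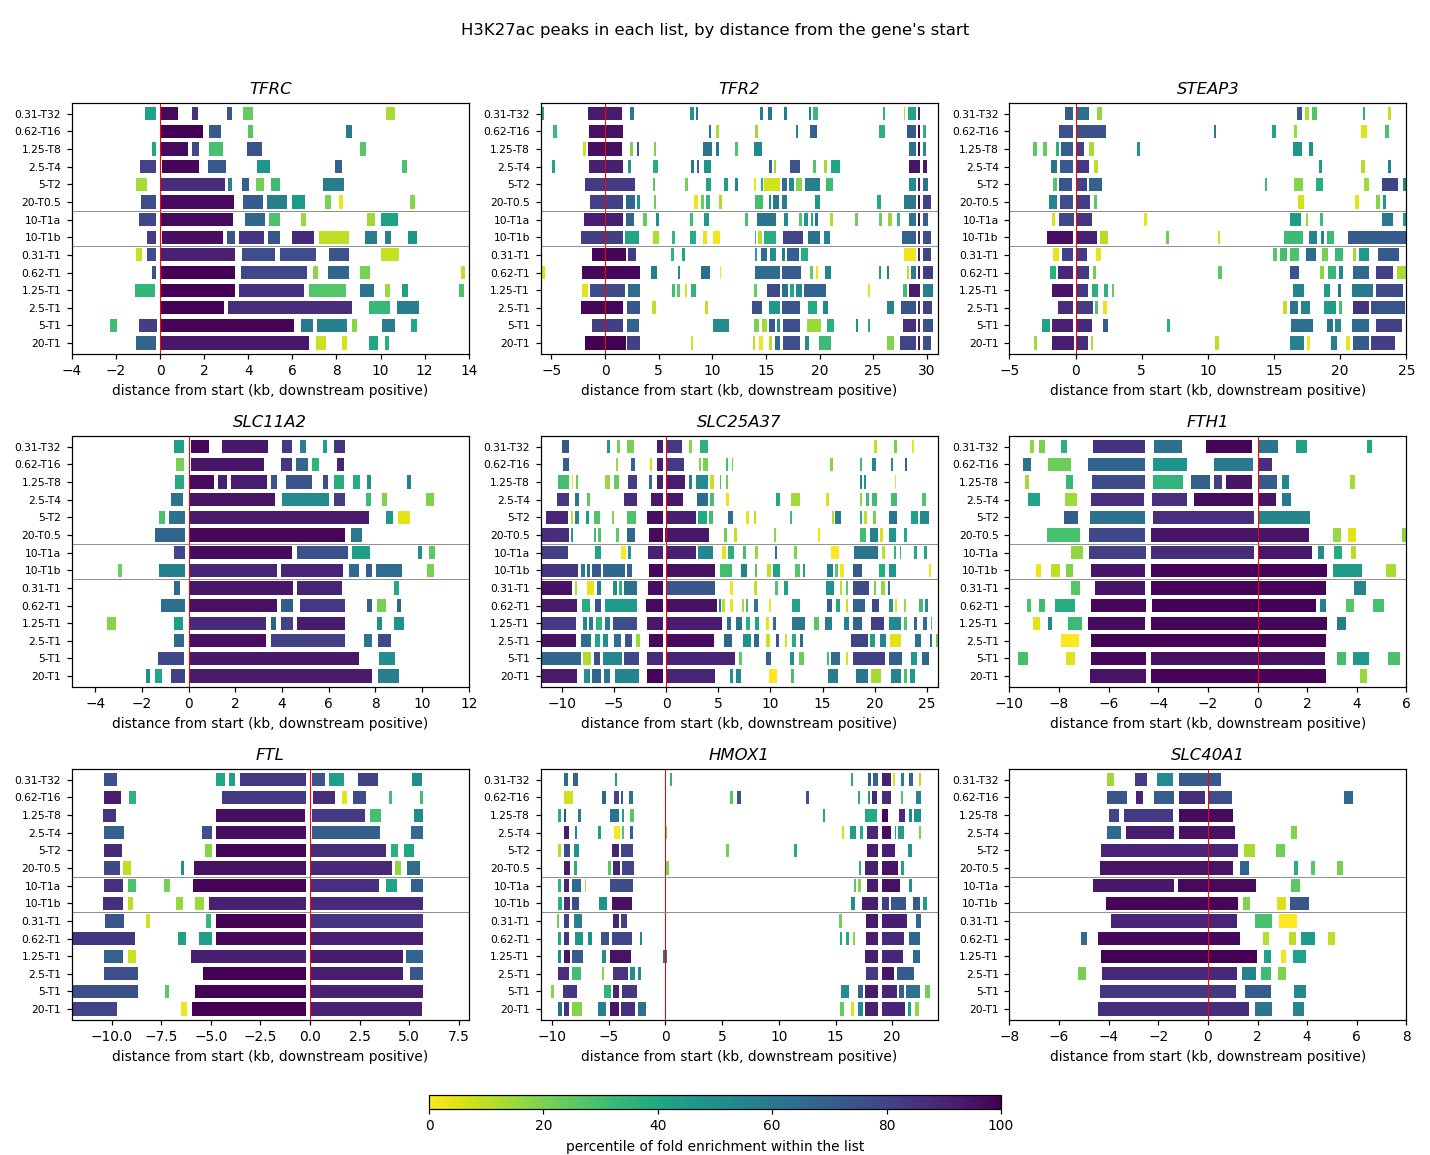
Peaks of each of the 14 lists (rows), in the part of each window shown, by distance from the start (kb, downstream positive, vertical line at the start), coloured by the percentile of their fold enrichment within the list, with the fixed-antibody lists on top, the 10 µg pair in the middle and the normalized lists below. Peaks flank the start of STEAP3, SLC11A2 and FTL, and that of TFRC in all lists but 0.62-T16 and 2.5-T1. HMOX1 has peaks in every list upstream of its start and at MCM5 further downstream, and few at the start.

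FTH1 and FTL, the ferritin chains that form the shell in which iron is stored, had the highest coverage and the smallest relative change. At FTH1 the fixed-antibody libraries covered 30.5%, 31.03%, 30.4%, 34.3%, 39.5% and 47.3% from titer 32 down to 0.5. The normalized libraries covered 42.4% to 54.3% with a median of 45.7%. The series overlapped through 20-T0.5 alone, and at 20 µg the normalized library was lower by 4.93 points. The slope over titer was −3.91 ± 0.803 points (SE, limma, adjusted p = 0.00151), but on the log2 scale it was −0.14 ± 0.029 (SE), close to the median of all windows.

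The FTH1 window held a region of 9645 bp over the start, chr11:61964843-61974487. The window also overlaps BEST1, so part of the coverage may lie at this neighbour. Between 5795 and 9467 of its bases were under peaks, in 1 peak in some lists and in up to 7 in others. The number of peaks in the window thus ran apart from the coverage, with 2 peaks and 43.7% covered in 2.5-T1 but 10 peaks and 30.4% in the fixed-antibody library of 1250 ng. The start base was covered in 8 of 14 lists. The strongest peak that reached within 1 kb of the start had a fold enrichment of 7.07 to 15.998 in the fixed-antibody series (median 9.82). In the normalized series the fold enrichment was 14.3 to 21.1 (median 19.1), with overlap through 20-T0.5. The median position of the summit was −451 bp in the fixed-antibody and −2288.5 bp in the normalized series.

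At FTL coverage was higher at each step of the fixed-antibody series, from 34.0% in 0.31-T32 through 36.3%, 39.1%, 44.9% and 46.9% to 56.2% in 20-T0.5. The normalized libraries covered 52.2% to 60.6% with a median of 56.3%, and the 10 µg pair 54.2% and 56.3%. At 20 µg the normalized library was lower by 1.31 points, and the series overlapped. The slope over titer was −4.78 ± 0.659 points (SE, limma, adjusted p = 0.000277) and −0.15 ± 0.024 on the log2 scale. The regions on both sides of the FTL start, chr19:48959303-48965112 and chr19:48965337-48971020, left 224 bp between them without a peak in any list, the start included. Upstream, chr19:48949580-48956626 holds the start of BAX, and the window overlaps BAX and GYS1, so part of the coverage lies at these neighbours.

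HMOX1 encodes heme oxygenase 1, which breaks down heme and frees its iron, and was the member without a marked start. A peak lay within 1 kb of its start in 4 of 14 lists, 0.31-T32, 2.5-T4, 20-T0.5 and the normalized 1250 ng library, with a fold enrichment of 3.70 to 5.22. The other 8 members had a peak within 1 kb of a RefSeq start in 14 of 14 lists, as did 50% of the 19630 genes with a known strand, while 37% had none in any list. Of the 7 regions that touched the HMOX1 gene body none had a peak in more than 3 lists. Peaks in 14 of 14 lists lay upstream, at chr22:35371535-35373811, from −9561 to −7285 bp of the start, and at chr22:35375175-35378587, from −5921 to −2509 bp. In the upstream region closer to the start the fold enrichment was 4.37 to 12.7 in the fixed-antibody series (median 5.98) and 7.62 to 15.6 in the normalized series (median 11.1). The remaining pair of regions with a peak in every list, chr22:35398067-35399846 and chr22:35400163-35403668, flanked the start of MCM5, a replication helicase gene.

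The HMOX1 window was covered to 10.9% to 18.6% in the fixed-antibody series (median 16.4%) and to 19.4% to 30.4% in the normalized series (median 25.7%), without overlap. Its slope over titer was −2.27 ± 0.705 points (SE, limma, adjusted p = 0.0134). It did not pass without 0.31-T32, at −2.14, or without 0.62-T1, at −1.87, and for the gene body alone the slope was 0.564.

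SLC40A1 encodes ferroportin, the iron exporter. With fixed antibody its coverage was 7.67%, 10.4%, 12.1%, 13.05%, 16.5% and 18.2% from titer 32 down to 0.5, higher at each step. The normalized libraries covered 17.5% to 20.7% and the 10 µg pair 19.7% and 20.2%, and the series overlapped through 20-T0.5 alone. The matched difference shrank from 9.81 points at 0.31 µg to 2.55 points at 20 µg. Its slope over titer was −2.13 ± 0.329 points (SE, limma, adjusted p = 0.00042). The region over the start, chr2:189578191-189585404, covered the start base in 13 of 14 lists and its fold enrichment was 6.31 to 16.2 in the fixed-antibody series and 8.81 to 21.6 in the normalized series, with overlap.

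All 9 members were therefore called lower with rising titer, and none was called higher. The share of all windows called lower was 57.9%, and 67.5% among the 5340 windows with a mean coverage of at least that of SLC11A2, the lowest member, a set chosen after the values were seen. The share called higher was 0.741%. The median slope of the members was −3.19 points against −0.659 over all windows, but a slope in points is larger where more is covered, and on the log2 scale the medians were −0.19 and −0.15. With DNAchrom at constant titer 0 of the 9 members were called, where 0.0322% of all windows were higher and 0% lower. The members' slopes over DNAchrom ran from −1.10 ± 0.564 points per doubling at TFRC to 0.527 ± 0.235 at SLC11A2 (SE), and 1 of the 9 had an unadjusted p below 0.05, as did 14% of all windows.

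**Figure D3:**
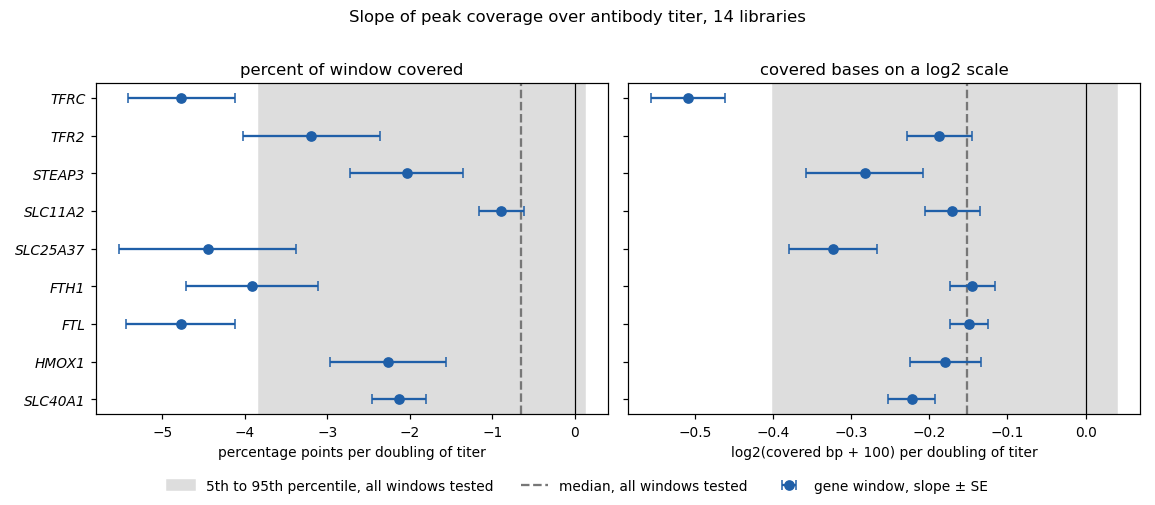
Slope of coverage per doubling of titer for each member (point ± SE, limma over 14 libraries), in percentage points of the window on the left and as log2(covered bp + 100) on the right, with the median of all 12424 windows (dashed) and their 5th to 95th percentile (grey). On the left 4 members lie below the band, and on the right TFRC alone does, at −0.51.

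Titer above or below 1 occurred only in the fixed-antibody series. When the 12 libraries of both series were fitted with a term for the series, 0 of 9 members were called lower with titer, and 0% of all windows were, although 4 members had an unadjusted p below 0.05, as did 18.5% of all windows. The slopes were still negative in 8 of 9 and in 79.1% of all windows. They were −2.35 ± 0.653 points at TFRC (SE, limma, adjusted p = 0.143), −3.40 ± 0.978 at FTL (adjusted p = 0.151) and −1.30 ± 0.414 at SLC40A1 (adjusted p = 0.165). At FTH1 and TFR2 they were −2.82 ± 1.22 and −1.71 ± 1.18. At SLC25A37, STEAP3 and SLC11A2 the slopes were smaller than their SE, at −0.672 ± 1.15, −0.127 ± 0.555 and −0.297 ± 0.357. At HMOX1 the slope was 0.305 ± 0.676. A difference over titer and a difference between the series can thus not be told apart for these genes by this fit.

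At matched amounts of DNAchrom the normalized library covered more of the window at all 6 amounts for 7 of the 9 members, FTH1 and FTL being the exceptions at 20 µg. This held for 47.6% of all windows, and 0.644% had the opposite at all 6. The smallest p an exact sign-flip test over 6 pairs can give is 0.03125, which could not pass adjustment over all windows. For TFRC, SLC25A37, STEAP3 and HMOX1 every normalized value was above every fixed-antibody value, which was the case for 9.83% of windows. The mean matched differences ranged from 3.07 ± 1.83 points at SLC11A2 (SD, n = 6 amounts) to 16.7 ± 3.55 at SLC25A37, with 15.2 ± 6.18 at TFRC, and their median was 9.91 points against 2.12 over all windows. Between 10-T1a and 10-T1b, made at the same titer and amount, the difference was 0.468 points at SLC40A1 and up to 11.8 at STEAP3, with 10-T1b higher at 9 of 9 members and at 64.7% of all windows. Spread between libraries and a difference between the series or their inputs cannot be told apart in this pair.

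Apart from HMOX1, peaks that reached within 1 kb of the start ranked high among all peaks of their lists. Ranks at the marked starts of other genes are not given here. The strongest peak within 1 kb of the start had a median percentile over the lists of 84.4 at STEAP3, 92.2 at TFR2, 92.6 at SLC40A1, 94.7 at SLC11A2, 94.9 at SLC25A37, 97.4 at TFRC, 97.5 at FTL and 98.002 at FTH1. At HMOX1 it was 26.8 over 4 lists. The summit of the strongest peak could lie further than 1 kb from the start. It lay between −2620 and 1043 bp at FTL, −3837 and 167 bp at FTH1 and 195 and 2576 bp at TFRC. At TFRC its median was 292.5 bp in the fixed-antibody and 1598.5 bp in the normalized series, so the series were not compared at 1 position. At TFRC, STEAP3, SLC11A2 and FTL the start base was in no peak of any list. The same held for 23.6% of the 9824 genes whose start had a peak within 1 kb in 14 of 14 lists, on either side. Peaks lay on both sides of the start in every list at STEAP3, SLC11A2 and FTL. At TFRC the upstream peak was missing in 0.62-T16 and 2.5-T1. The stretch without a peak was 195 bp at TFRC, 157 bp at STEAP3, 171 bp at SLC11A2 and 224 bp at FTL, and it ended 17 to 35 bp downstream of the start in all 4. The sequences printed above for these genes lie largely in these stretches.

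**Figure D4:**
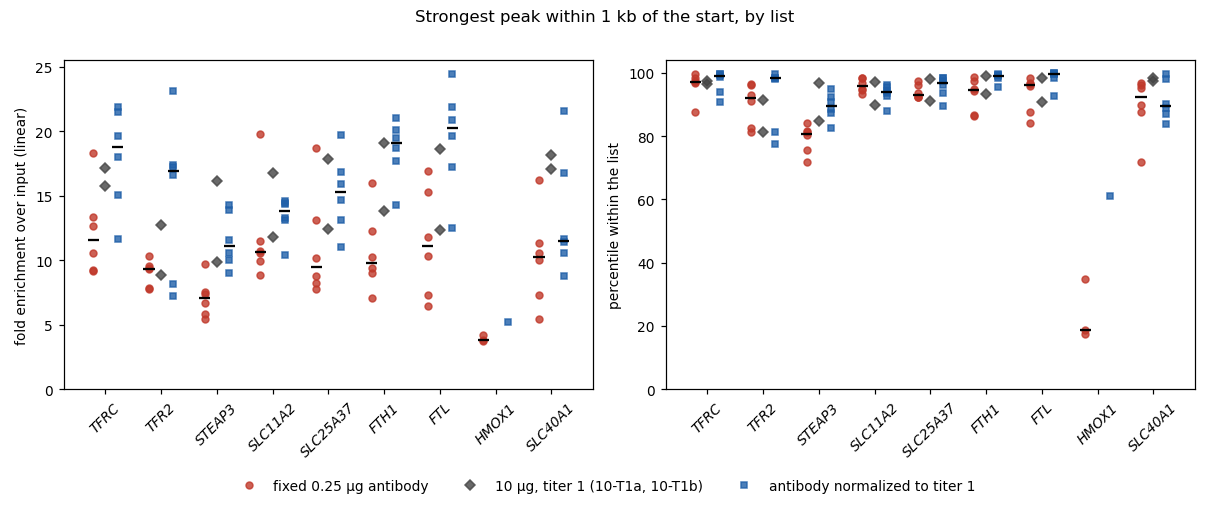
Strongest peak that reaches within 1 kb of the start in each list, as fold enrichment over input (left, from 0) and percentile within its list (right). Its summit may lie further off. Fixed-antibody libraries are circles, the 10 µg pair diamonds and normalized libraries squares, with bars at the median of groups with more than 2 values. HMOX1 has 4 points, up to the 61.0 percentile, and the other 8 genes have 14 each.

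Whether peak strength followed titer was asked for the 24 regions of the 9 windows with a peak in 14 of 14 lists, 13.6% of the members' regions against 10.9% of all regions. As deposited, the fold enrichment had a negative slope over titer in all 24 regions, and 16 passed (limma on log2 fold enrichment), where 88.7% of 18472 such regions had a negative slope and 51.6% passed. The median slope was −0.15 per doubling of titer, against −0.12 over all of them. The median fold enrichment of a whole list over these regions itself ran from 6.18 to 11.3 in the fixed-antibody series and from 9.40 to 11.6 in the normalized series. Relative to that median, 0 of the 24 were lower and 0 higher, where 6.36% and 8.12% of all regions were. An unadjusted p below 0.05 was found at 4 of the 24, all with a negative slope, and at 31.5% of all regions, 14.2% with a negative slope. The steepest relative slopes were −0.15 ± 0.053 at the upstream region of FTL (SE, limma, adjusted p = 0.0569) and −0.13 ± 0.049 at FTH1 (adjusted p = 0.0646), and the highest was 0.11 ± 0.059 at the region from −6016 to −2495 bp of SLC25A37 (adjusted p = 0.22). For DNAchrom 0 of 24 were called in either direction, and 0% of all regions were, while 3 had an unadjusted p below 0.05, as did 11.4% of all regions.

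**Figure D5:**
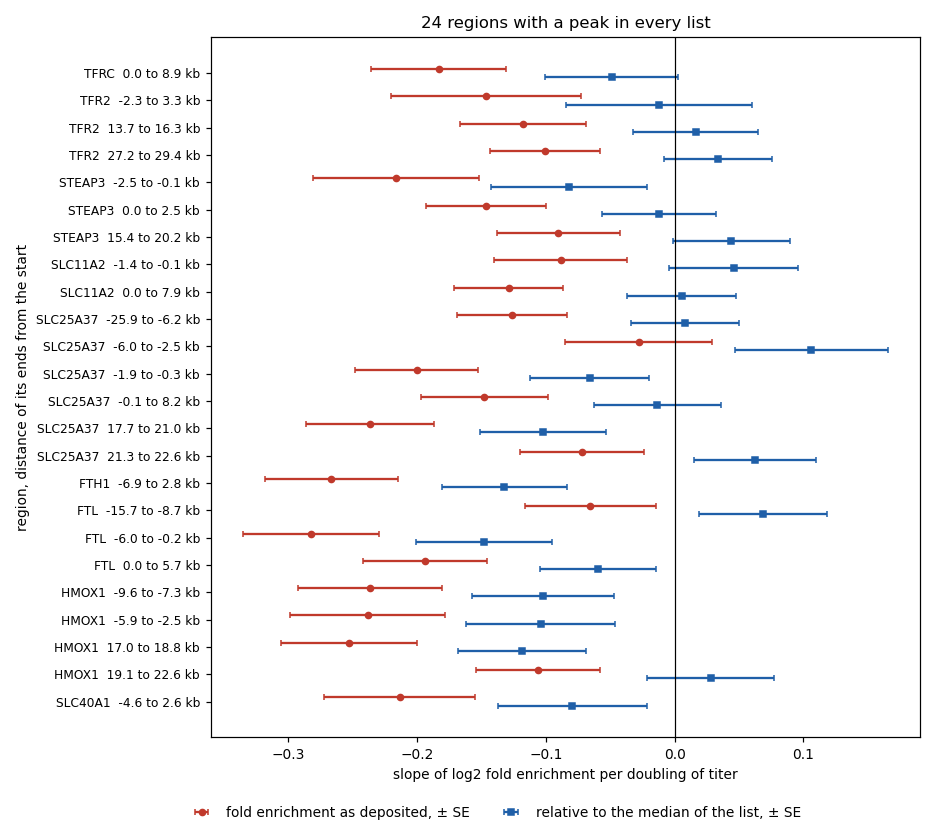
Slope of log2 fold enrichment per doubling of titer (± SE, limma over 14 libraries) for the 24 regions with a peak in every list, named by gene and the distance of their ends from its start, with values as deposited as circles and values relative to the list median as squares. The circles are all below 0, and the squares lie on both sides of 0.

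The other regions were found in fewer lists. Of the 176 regions 58 had a peak in 1 list, 33.0% against 46.2% of all regions. Peaks in normalized lists only were seen at 43 regions (24.4%, against 26.3% of all) and in fixed-antibody lists only at 25 (14.2%, against 21.4%). TFRC and SLC25A37, which held 24 and 34 of the 176 regions, together had 20 of the 43 regions with peaks in normalized lists only. HMOX1, with 19 regions, had 7 of the 25 with peaks in fixed-antibody lists only, the most of any member. Each of these 7 had a peak in 1 list. Read depth was not used here.

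A further list of 32 iron genes, for iron sensing, ferritin chaperones, iron-sulfur clusters, heme and systemic iron, was chosen with earlier results of these data known. Of these 24 had enough coverage to be tested, 20 were lower with titer (57.9% of all windows were), 0 were higher, and 0 were called for DNAchrom. With the term for the series no window at all was called lower. Their median slope was −0.966 points. The highest mean coverage was 54.8% at PCBP1, an iron chaperone, 53.6% at NCOA4, the receptor for ferritin breakdown, 41.6% at BLVRB, biliverdin reductase B, 31.6% at GLRX5, for iron-sulfur clusters, and 23.6% at SLC48A1, a heme transporter. A start was marked in 14 of 14 lists for 23 of the 32 and in 0 lists for 6, against 50% and 37% of all genes. Of the 12402 windows tested that do not overlap a member's, those whose coverage over the 14 lists was most like the members' mean standardized profile were PTPN1, FAM222B, BCL2L13, MYL4 and LYN, with Pearson's r of 0.991 to 0.997 as a description over 14 lists that share the depth of each library, and the median r over all these windows was 0.803. Among the 36 pairs of members r was 0.651 to 0.964 with a median of 0.86.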

How the data were processed

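H3K27ac ChIP-seq of K562 gave 14 peak lists. The authors aligned reads with BWA 0.5.9 after CASAVA 1.4, as the submitters' processing notes list them, and ran MACS2 (Partek Flow 10.0) on each library by itself against an input to call peaks. The deposited values are a fold enrichment, which is a ratio to input, and the −log10 of the p-value and q-value. The deposited peak score was not used. The labels name hg38 and the paper hg19, and positions were read as GRCh38. The lists reach down to a −log10 q of 1.30, above the stated FDR, so a minimum of 2 was set. For every library the study reports fewer peaks at that FDR than remained here, so these are not the peak counts it reports.

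All 9 genes are named, and their regions are those at the start and those with a peak in all lists. The members and lists were chosen with earlier results of these data known. Gene bodies came from RefSeq GRCh38.p14, and the strand of 4 members from GENCODE by symbol. Coverage (windows with a mean of at least 1%) and log2 fold enrichment minus the list median were fitted with limma 3.58.1 in R 4.3.3, with trend, on log2 titer and log2 DNAchrom over 14 libraries. P-values were Benjamini-Hochberg adjusted over all windows or regions, with a threshold of 0.05, and measure the spread between these libraries, which may be technical. The fit and the coverage count were tested on simulated data. Other steps used Python 3.11.15, and the fixed-antibody and normalized libraries were paired by the amount of DNAchrom given in their titles. Alternatives were other q-value minimums, windows, scales and filters, a series term, and leaving out each library or pair. The 2 input libraries have no list here. Read depth was not used, so counting error per value is unknown. A pair of the markers used to check the cell type is not reported here, so the markers given are only part of that check.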

Additional observations from a re-analysis of the deposited data

Results flagged for a closer look

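Of 34 groups of 6 libraries examined for a value far from the others, 3 stood out. The rule was a gap to the nearest value above Dixon's 95% critical share of the range. For replicates chance exceeds it in about 1 in 20 groups. The libraries of a group differ in titer or DNAchrom, so that rate does not hold here. At the SLC11A2 start the fold enrichment in 20-T0.5 was 19.8, far above the next fixed-antibody value of 11.5 (gap over range 0.761). Over the regions with a peak in every list, 20-T0.5 also had the highest median fold enrichment of the fixed-antibody series, 11.3. Within its list the peak at the SLC11A2 start ranked at the 98.3 percentile, and in 0.31-T32 at the 98.4. At the same start the normalized 1250 ng library had 10.4, below the next normalized value of 13.1 (0.647). The STEAP3 window was covered to 10.8% in 5-T2, above the next fixed-antibody value of 7.46% (0.627).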

How the results depend on the processing

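All 9 members were lower with titer with a −log10 q of at least 3 or 5, all deposited peaks, 25 kb flanks, log2(covered bp + 100) and no filter. The share of all windows called lower was then 60.9%, 68.1%, 56.1%, 66.1%, 66.1% and 48.8%, in that order. The gene body alone gave 8, against 41.3% of all windows. Leaving out 1 library gave 7 to 9 (7 without 0.31-T32 and 8 without 0.62-T1), against 45.4% to 63.2% of all windows. A term for the series gave 0, against 0% of all windows. The slope of HMOX1 turned to 0.564 for the gene body and 0.305 with the series term, and the cause was not tested. Regions lower with titer numbered 0, but 16 without centring, 3 on the percentile scale (12.8% of all regions) and 0 to 2 when 1 library was left out. The pairing by DNAchrom gave 7 members higher at all amounts, against 47.6% of all windows. Leaving out 1 pair gave 7 to 9. Without the pairing 4 members had no overlap between the series, against 9.83% of all windows.

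Over all windows 7199 were lower and 92 higher with titer, against 4700 lower for the gene body, and 0 lower and 1 higher with the series term. Other settings gave 14 to 143 higher. Regions lower numbered 1174 and higher 1500, and over the alternatives 1 to 9540 and 1 to 1860. With DNAchrom 4 windows were higher, and 0 to 233 under alternatives. There is 1 library per condition and no read depth in the lists, which limits the precision of each value.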
